A study of Rattus norvegicus with 9 samples.

Results

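Genes of the Wnt signalling pathway were followed in the lungs of fetal rats whose lungs were underdeveloped, with and without a stem cell vesicle treatment. The gene set held 49 named ligands, receptors, inhibitors, cytoplasmic proteins and nuclear factors, taken by symbol and matched to the NCBI Gene IDs of the deposited table. Of these, 46 were in the table and 41 had a mean of at least 1 CPM over the 9 libraries, out of 17465 genes in all and 12966 that were tested. CPM is a gene's estimated count scaled to a library size that is the same for all libraries, after TMM normalization, which evens out differences in library make-up, and it is not corrected for gene length, so levels are compared between libraries and not between genes. Each of the 41 genes had a mean of at least 1 CPM in each of the 3 groups, so none entered through 1 group alone. Dkk1, Sfrp4, Rspo3, Lgr5 and Wnt2b lay below that level, at means of 0.134, 0.313, 0.418, 0.538 and 0.961 CPM, and the lowest genes above it were Notum at 1.59, Wnt5b at 1.85, Fzd10 at 1.99 and Frzb at 2.13 CPM. Tcf7, Lgr6 and Znrf3 were not analysed here.

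Wnt proteins are secreted ligands that carry a lipid, which is attached by Porcn, and they leave the cell with the carrier Wls. They bind Frizzled receptors and, in the branch of the pathway that works through beta-catenin (Ctnnb1), the co-receptors Lrp5 and Lrp6. Beta-catenin is then no longer destroyed by the Axin and Apc complex and acts with the Tcf and Lef proteins on target genes, several of which (Axin2, Nkd1, Notum, Rnf43, Lef1) feed back on the pathway. Sfrp, Frzb, Wif1 and Dkk proteins and Notum are grouped here as secreted inhibitors. R-spondins strengthen the signal by holding back the ubiquitin ligases Rnf43 and Znrf3. In the fetal lung Wnt7b is made by the epithelium and acts on the growth of epithelium and mesenchyme, and Wnt5a, which can signal through Ror receptors without beta-catenin, takes part in shaping the airways.

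The 3 groups were untreated control lungs, untreated hypoplastic lungs and hypoplastic lungs given AFSC-EVs, the extracellular vesicles of amniotic fluid stem cells, with 3 fetal lungs of Sprague-Dawley rats each, and the RNA of all lungs was isolated on a single day. The series title names oligohydramnios, a lack of amniotic fluid, as what led to the hypoplasia. Not given in the sources used here: fetal age, litter, sex, and vesicle dose, route and time. Whether the lungs of a group came from separate litters is thus unknown, and p-values measure the spread between these lungs. By Xist and Y-linked genes, 2 control lungs were male and 1 was female. Hypoplastic and treated lungs each had 1 male and 2 female. Library totals ran from 56922779 to 88243188 estimated counts. Summed epithelial markers were at 1978 to 2075 CPM in control, 1642 to 1881 CPM in hypoplastic and 1854 to 2012 CPM in treated libraries. The hypoplastic sums were below all control sums and overlapped the treated ones. Of the 6 epithelial genes, 1 had a higher mean in hypoplastic than in control lungs. The part of this in the Wnt gene values was not tested. Summed endothelial markers were at 681 to 917 CPM in the 9 libraries. Control library 2 and hypoplastic library 2 lay farthest apart on the first principal component of all tested genes, at -54.9 and 62.2, with the other 7 libraries between -12.9 and 20.6. The results that moved most with these 2 libraries are given with and without them. On the second component hypoplastic library 1 lay at -48.7 and all other libraries between -12.9 and 31.5. It was kept where those 2 libraries were left out.

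In whole lungs, fewer cells of a type and less RNA per cell cannot be told apart, and this holds for each value that follows. No Wnt pathway gene passed an adjusted p of 0.05 by edgeR in any of the 3 comparisons, and the clearest differences in size were in secreted inhibitors. In hypoplastic against control lungs the group means of Sfrp1, Sfrp2 and Dkk2 were 9.98 against 2.61, 32.9 against 11.0 and 6.52 against 1.17 CPM, and those of the ligand gene Wnt3a and the receptor gene Fzd5 were 1.69 against 4.65 and 14.2 against 21.2 CPM. In treated lungs the means of Sfrp1, Sfrp2 and Dkk2 were 3.77, 10.8 and 2.06 CPM. The hypoplastic libraries were uneven in these genes, library 3 being the lowest at 4.20, 12.4 and 2.82 CPM. For Sfrp2 library 3 lay within the control range. The feedback gene Nkd1 and the nuclear factor gene Tcf7l1 were at means of 69.5 and 64.7 CPM in treated lungs, above every library of both other groups.

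The promoters of the genes that were higher in treated than in untreated hypoplastic lungs at an unadjusted p under 0.05 (Nkd1, Tcf7l1 and Rnf43) are printed with that of Axin2, the classic feedback target of the pathway, so that their letters can be set beside the values. The windows are RefSeq sequences of assembly GRCr8, from 250 bases before to 50 bases after the gene's start, read 5′ to 3′ on the gene's strand. The build named for the counts is rn7, so these positions were not compared with the reads. Capitals mark CTTTGAT, a form of the core of the Tcf and Lef motif, on both strands. Only these exact letters were searched, and other forms of the core were not.
Nkd1 promoter, GRCr8 chr19:34722797-34723096, minus strand: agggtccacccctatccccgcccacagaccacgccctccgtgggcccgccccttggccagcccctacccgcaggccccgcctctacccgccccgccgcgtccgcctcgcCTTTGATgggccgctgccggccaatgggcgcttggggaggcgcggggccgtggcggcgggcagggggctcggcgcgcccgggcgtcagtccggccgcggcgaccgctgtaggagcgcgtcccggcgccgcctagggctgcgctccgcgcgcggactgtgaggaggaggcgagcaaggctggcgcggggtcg
Axin2 promoter, GRCr8 chr10:94398535-94398834, plus strand: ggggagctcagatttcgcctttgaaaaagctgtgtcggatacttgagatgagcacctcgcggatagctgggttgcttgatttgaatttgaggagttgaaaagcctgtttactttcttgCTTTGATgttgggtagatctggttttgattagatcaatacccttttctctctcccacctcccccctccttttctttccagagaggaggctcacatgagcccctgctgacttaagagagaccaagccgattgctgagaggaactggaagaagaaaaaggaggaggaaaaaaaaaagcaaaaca
Tcf7l1 promoter, GRCr8 chr4:106403372-106403671, minus strand: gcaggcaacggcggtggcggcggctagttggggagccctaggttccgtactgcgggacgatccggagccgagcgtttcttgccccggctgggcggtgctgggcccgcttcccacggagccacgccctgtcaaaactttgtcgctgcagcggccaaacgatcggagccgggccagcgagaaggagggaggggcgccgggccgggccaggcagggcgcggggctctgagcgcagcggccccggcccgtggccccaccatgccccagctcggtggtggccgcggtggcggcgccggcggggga
Rnf43 promoter, GRCr8 chr10:72963116-72963415, plus strand: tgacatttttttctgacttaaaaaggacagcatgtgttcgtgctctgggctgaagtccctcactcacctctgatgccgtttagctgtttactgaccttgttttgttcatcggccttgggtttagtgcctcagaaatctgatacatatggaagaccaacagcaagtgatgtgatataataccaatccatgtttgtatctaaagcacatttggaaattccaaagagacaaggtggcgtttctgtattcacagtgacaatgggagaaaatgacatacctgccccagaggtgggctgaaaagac
CTTTGAT was found once in Nkd1, 141 bases before the start, and once in Axin2, 132 bases before it. It was on the gene's strand in both, and not in these windows of Tcf7l1 and Rnf43. Of the 28 genes of the set with at least 1 CPM and a window in the table, these 2 held it, where 3.63% of all 33469 windows of the same length did. A match is a description of the letters and was not read as a bound site.

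In hypoplastic against control lungs, 5 of the 41 genes (12.2%) had an unadjusted p under 0.05 by edgeR, where 12.4% of all tested genes did. Of the 5, 3 were higher, against 6.67% of all genes, and 2 lower, against 5.69%. The share of the Wnt genes was thus near that of all genes. Values did not overlap between the groups in 6 of the 41 genes (14.6%), against 16.7% of all genes. At an adjusted p under 0.05, edgeR called 0 of the 41 genes, and so did limma voom, each against 0.00771% of all genes. DESeq2 called 3 of them, Dkk2, Sfrp1 and Fzd5 (7.32%, against 1.63% of all genes). The median log2 fold change was 0.06, and that of all tested genes was 0.01. For treated against hypoplastic lungs 8 of the 41 genes (19.5%) had an unadjusted p under 0.05, where 5.56% of all genes did. Of the 8, 5 were lower, against 3.56% of all genes, and 3 (Nkd1, Tcf7l1 and Rnf43) were higher, against 259 of all 12966 genes. Without hypoplastic library 2 there were 5 higher and 2 lower, where 5.42% of all genes had an unadjusted p under 0.05. Values did not overlap in 6 (14.6%), against 9.81%. At an adjusted p under 0.05, edgeR and limma voom called 0 of them (each 0% of all genes), and DESeq2 called 0 (0.140% of all genes). Without treated library 1 the count at an unadjusted p under 0.05 was 5, where 2.85% of all genes had one. In treated against control lungs 2 of the 41 genes (4.88%) had an unadjusted p under 0.05, against 4.17% of all genes. Both were higher, against 1.67% of all genes, and 5 (12.2%) did not overlap, against 9.39%. At an adjusted p under 0.05, edgeR and limma voom called 0 of them (each 0% of all genes), as did DESeq2 (0.108% of all genes). Without treated library 3 the count at an unadjusted p under 0.05 was 1, where 4.34% of all genes had one. The comparisons share libraries, the hypoplastic ones being in both of the first 2, so their values are given side by side and no comparison is a second test of another.

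**Figure D1:**
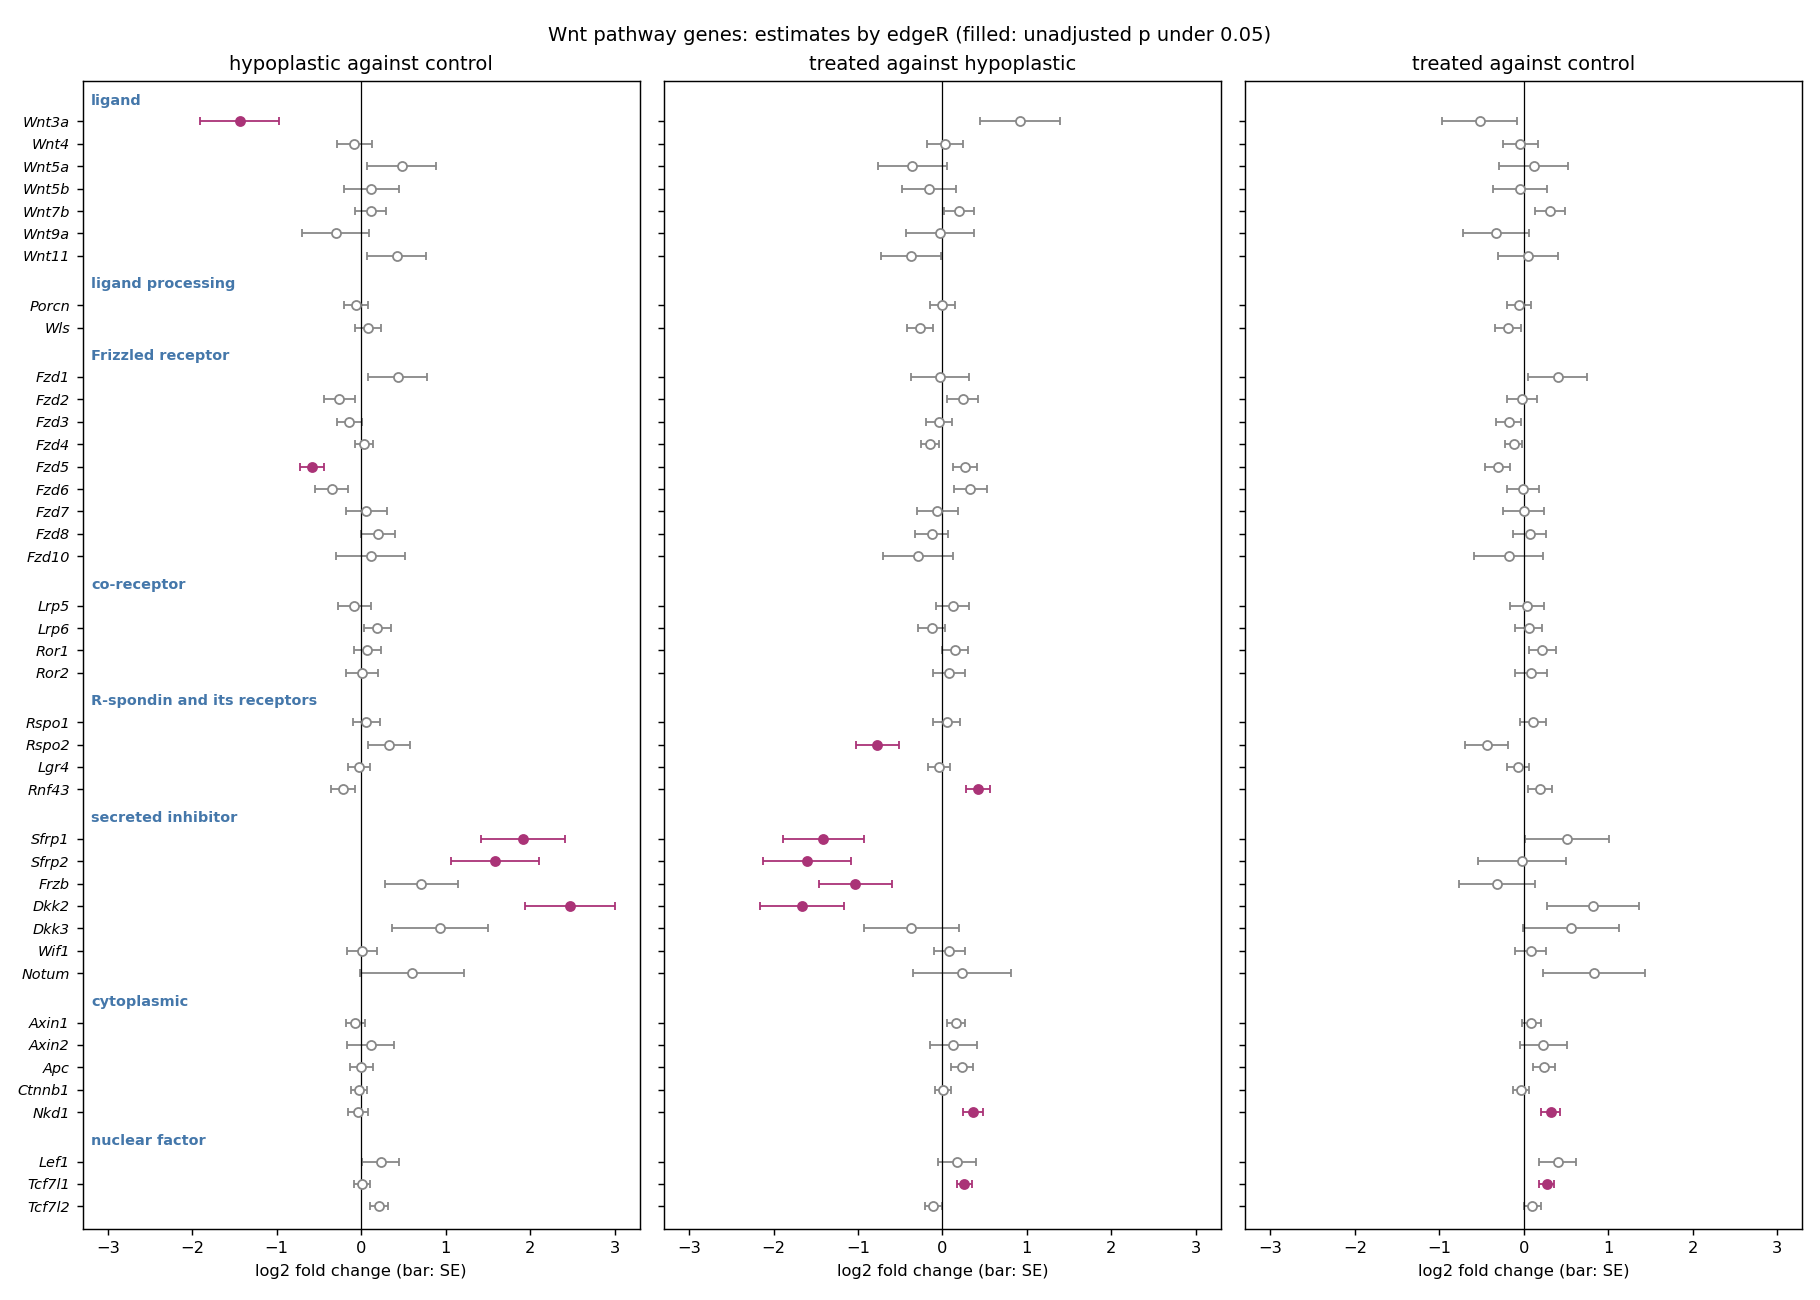
Log2 fold change with its standard error (horizontal axis) of the 41 Wnt pathway genes (vertical axis, by role) in the 3 comparisons, by edgeR. Filled points have an unadjusted p under 0.05, 5, 8 and 2 genes from left to right, and the largest estimates are those of Dkk2, Sfrp1 and Sfrp2 in the left and middle panels.

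Among the 7 ligand genes with at least 1 CPM, Wnt3a was the only one at an unadjusted p under 0.05 in any comparison. Wnt3a, a ligand that signals through beta-catenin, was at 2.70, 7.85 and 3.42 CPM in the control libraries, 1.48, 2.34 and 1.27 CPM in the hypoplastic and 2.79, 2.08 and 4.83 CPM in the treated libraries. All hypoplastic libraries lay below all control libraries, and the treated libraries overlapped both. The log2 fold change in hypoplastic against control lungs was -1.44 (SE 0.471), with an edgeR adjusted p of 0.325. Without control library 2, which held the highest value, it was -0.85, and the unadjusted edgeR p moved from 0.0126 to 0.0651. In treated against hypoplastic lungs it was 0.92 (SE 0.473, edgeR adjusted p 0.901).

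Wnt7b, the epithelial ligand, was at 24.8, 22.8 and 24.1 CPM in control, 20.8, 25.0 and 31.9 CPM in hypoplastic and 36.0, 25.2 and 27.7 CPM in treated libraries. The treated values lay above all control values, and the hypoplastic values overlapped both groups, with an estimate of 0.31 on the log2 scale (SE 0.179, edgeR adjusted p 0.998) in treated against control lungs. Wnt5a was at 47.3, 24.1 and 53.0 CPM in control, 40.6, 77.5 and 55.3 CPM in hypoplastic and 32.3, 28.8 and 74.4 CPM in treated libraries. The libraries of 1 group thus differed by more than the group means, which were 41.5 ± 15.3, 57.8 ± 18.6 and 45.2 ± 25.4 CPM (SD, n = 3 each). Wnt11, another ligand linked to signalling without beta-catenin, was at 22.3, 8.10 and 23.1 CPM in control, 20.5, 24.6 and 26.3 CPM in hypoplastic and 17.7, 13.5 and 24.2 CPM in treated libraries. Control library 2 held its lowest value, and the 3 groups overlapped. The group means of Wnt4 ran from 24.0 to 25.3 CPM, those of Wnt9a from 5.91 to 7.42 CPM and those of Wnt5b from 1.78 to 1.96 CPM, each with overlapping libraries. Wnt2b, below 1 CPM on average, was at 1.39, 1.25 and 0.420 CPM in control, 0.701, 2.40 and 0.507 CPM in hypoplastic and 1.44, 0.120 and 0.426 CPM in treated libraries, which overlapped. The genes that finish and carry the ligands overlapped between groups, Porcn being at group means of 9.78 to 10.2 CPM and Wls at 186 to 225 CPM.

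Of the 9 Frizzled genes, 1 was under the unadjusted p of 0.05 when hypoplastic and control lungs were compared, and none was in the other comparisons. Fzd5, a receptor of beta-catenin signalling, was at 18.6, 23.6 and 21.5 CPM in control, 13.3, 13.2 and 16.1 CPM in hypoplastic and 18.1, 15.1 and 18.1 CPM in treated libraries. Both the hypoplastic and the treated libraries lay below all control libraries, and hypoplastic library 3 was above the lowest treated one. The log2 fold change was -0.58 (SE 0.145, edgeR adjusted p 0.317) in hypoplastic against control lungs, where DESeq2 gave an adjusted p of 0.0279. It was -0.31 (SE 0.144, edgeR adjusted p 0.998) in treated against control and 0.27 (SE 0.144, edgeR adjusted p 0.901) in treated against hypoplastic lungs. Leaving out 1 library gave values of -0.68 to -0.50 in hypoplastic against control lungs.

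Fzd6, a receptor also linked to planar cell polarity, was at 81.2, 114 and 96.8 CPM in control, 60.8, 89.3 and 79.5 CPM in hypoplastic and 105, 74.7 and 109 CPM in treated libraries, and the groups overlapped. Fzd1 was at 74.7, 45.0 and 86.8 CPM in control, 56.1, 129 and 92.6 CPM in hypoplastic and 82.2, 64.1 and 126 CPM in treated libraries, with its highest values in hypoplastic library 2 and treated library 3. Fzd7 was at 83.1 CPM in control library 2 and at 129 to 192 CPM in the other 8. For the remaining Frizzled genes the group means ran from 21.5 to 25.8 CPM (Fzd2), 22.5 to 25.6 CPM (Fzd3), 47.2 to 52.4 CPM (Fzd4), 31.6 to 36.4 CPM (Fzd8) and 1.79 to 2.18 CPM (Fzd10), all with overlapping libraries.

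The co-receptors differed less between groups than between libraries. Lrp5 and Lrp6, which carry the beta-catenin signal, had group means of 240 to 260 and 170 to 195 CPM, and Ror1 and Ror2, receptors for Wnt5a, 42.6 to 49.8 and 84.0 to 89.3 CPM. Control library 2 was the lowest of the 9 for all 4, at 173, 135, 34.1 and 56.6 CPM. Over the 41 genes it was the lowest control library in 23 (56.1%), where it was so in 38.6% of all tested genes. Hypoplastic library 2 was the highest of its group in 25 of the 41 (61.0%, against 35.1% of all genes), and treated library 3 was so in 26 (63.4%, against 38.1%). In control lungs the median coefficient of variation of the Wnt genes was 20.5%, and that of all tested genes with at least 1 CPM was 12.3%. In hypoplastic lungs these were 11.5% and 13.0%, and in treated lungs 14.2% and 12.8%.

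The R-spondin Rspo2, made by lung mesenchyme and needed for lung branching in the mouse, was at 6.02, 3.51 and 4.76 CPM in control, 6.25, 4.52 and 7.29 CPM in hypoplastic and 3.11, 4.08 and 3.38 CPM in treated libraries. All treated libraries lay below all hypoplastic libraries, and both overlapped the control range. The log2 fold change in treated against hypoplastic lungs was -0.77 (SE 0.251, edgeR adjusted p 0.859), and it was -0.94 to -0.61 when 1 library was left out. The unadjusted edgeR p was 0.0123, and 0.0535 without hypoplastic library 3. Rspo1 was even across the lungs, with values of 7.97 to 11.3 CPM, and so was the R-spondin receptor gene Lgr4, at 18.9 to 23.5 CPM. Lgr5, an R-spondin receptor gene below 1 CPM on average, was at 0.337, 0.517 and 0.203 CPM in control, 1.30, 0.441 and 0.362 CPM in hypoplastic and 0.487, 0.478 and 0.719 CPM in treated libraries. Its groups overlapped, and hypoplastic library 1 was highest. Rspo3 was at 0.230, 0.0713 and 0.420 CPM in control, 0.625, 1.27 and 0.253 CPM in hypoplastic and 0.184, 0.323 and 0.382 CPM in treated libraries. Hypoplastic libraries 1 and 2 were above the rest, and the groups overlapped through library 3. Rspo3 and the 4 other genes below 1 CPM were tested as well. Only Rspo3 among these was under the unadjusted threshold, and only between hypoplastic and control lungs (log2 fold change 1.51, SE 0.658, edgeR adjusted p 0.397).

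Rnf43, the ligase that removes Frizzled receptors from the cell surface, was at 12.1, 14.2 and 12.2 CPM in control, 10.6, 11.4 and 11.0 CPM in hypoplastic and 16.3, 12.6 and 15.1 CPM in treated libraries. The hypoplastic libraries lay below all others, and the treated libraries overlapped the control range. In treated against hypoplastic lungs the log2 fold change was 0.42 (SE 0.140, edgeR adjusted p 0.859), and in hypoplastic against control lungs it was -0.22 (SE 0.141, edgeR adjusted p 0.535). The unadjusted edgeR p of the former was 0.0148, and 0.0628 without treated library 1.

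All 7 secreted inhibitor genes with at least 1 CPM had an estimate above 0 in hypoplastic against control lungs, though that of Wif1 was 0.01. The median log2 fold change of the 7 was 0.93, the value of Dkk3 (edgeR adjusted p 0.522). The estimate of Notum, 0.60 (SE 0.617), was below 0 without control library 2 and hypoplastic library 2. Of all tested genes, 6733 of 12966 had an estimate above 0. Of the 7, 3 had an unadjusted p under 0.05, all higher, against the 6.67% of all genes that were higher. Sfrp1, a soluble Frizzled-like protein that binds Wnt ligands, was at 2.96, 1.12 and 3.76 CPM in control, 11.2, 14.6 and 4.20 CPM in hypoplastic and 4.54, 2.79 and 3.98 CPM in treated libraries. Every hypoplastic library lay above every control library, by little in library 3, and hypoplastic library 3 lay within the treated range. The log2 fold change was 1.92 (SE 0.496, edgeR adjusted p 0.317) in hypoplastic against control lungs, where DESeq2 gave an adjusted p of 0.0114, and -1.41 (SE 0.481, edgeR adjusted p 0.859) in treated against hypoplastic lungs. Without hypoplastic library 2 these were 1.54 and -1.03, and the unadjusted edgeR p of the latter moved from 0.0158 to 0.0644. Without treated library 2 that p was 0.0575.

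Sfrp2, of the same family, was at 13.3, 7.63 and 11.9 CPM in control, 26.1, 60.2 and 12.4 CPM in hypoplastic and 14.4, 6.10 and 12.0 CPM in treated libraries. Hypoplastic libraries 1 and 2 were above all others, and library 3 lay within the control and the treated range. Its log2 fold change was 1.58 (SE 0.522, edgeR adjusted p 0.325) in hypoplastic against control and -1.60 (SE 0.522, edgeR adjusted p 0.859) in treated against hypoplastic lungs. Without hypoplastic library 2 these were 0.81 and -0.83, and the unadjusted edgeR p moved from 0.0132 to 0.0770 and from 0.0123 to 0.0709.

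Dkk2, which binds Lrp co-receptors, was at 1.46, 1.05 and 1.02 CPM in control, 4.51, 12.2 and 2.82 CPM in hypoplastic and 1.38, 2.82 and 1.98 CPM in treated libraries. Hypoplastic lungs were above all control and all treated lungs, although the margin between hypoplastic library 3 and treated library 2 was within rounding. The log2 fold change was 2.47 (SE 0.533, edgeR adjusted p 0.317) in hypoplastic against control lungs, where DESeq2 gave an adjusted p of 0.000562, and -1.66 (SE 0.499, edgeR adjusted p 0.826) in treated against hypoplastic lungs. Without hypoplastic library 2 these were 1.65 and -0.83. In treated against control lungs Dkk2 had an estimate of 0.82 (SE 0.545, edgeR adjusted p 0.998), with overlapping libraries.

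Frzb, the third Frizzled-related inhibitor, was at 1.47, 2.18 and 1.95 CPM in control, 2.56, 5.26 and 1.27 CPM in hypoplastic and 1.58, 1.24 and 1.66 CPM in treated libraries. Hypoplastic libraries 1 and 2 were again above the rest, while library 3 was near the lowest of all. In treated against hypoplastic lungs the log2 fold change was -1.03 (SE 0.437, edgeR adjusted p 0.895), and without hypoplastic library 2 it was -0.37. The unadjusted edgeR p was 0.0414. It was 0.302 without hypoplastic library 2 and 0.0623 to 0.114 without any 1 of the treated libraries. Without hypoplastic library 3 it was 0.00299 (edgeR adjusted p 0.233), with a log2 fold change of -1.39. In hypoplastic against control lungs that omission gave 2.28 for Sfrp1, 1.97 for Sfrp2 and 2.83 for Dkk2. Their edgeR adjusted p were 0.0692, 0.146 and 0.0503.

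Among the other inhibitors with at least 1 CPM, libraries overlapped between all groups. Dkk3 was at 43.7, 10.8 and 66.0 CPM in control, 47.8, 103 and 79.7 CPM in hypoplastic and 34.3, 54.5 and 88.9 CPM in treated libraries, the widest spread of the 41 genes within the control group (coefficient of variation 69.1%). Wif1, a Wnt-binding inhibitor made in the distal lung epithelium, was at 32.1, 38.4 and 30.8 CPM in control, 41.0, 33.2 and 27.6 CPM in hypoplastic and 32.8, 43.8 and 30.7 CPM in treated libraries. Its log2 fold changes were 0.01, 0.08 and 0.08. Notum, an enzyme that removes the lipid of Wnt proteins, was at 1.62, 0.303 and 1.34 CPM in control, 1.39, 2.51 and 1.14 CPM in hypoplastic and 1.05, 1.36 and 3.58 CPM in treated libraries, with overlap of all groups. Dkk1, below 1 CPM on average, was at 0.260, 0.178 and 0.203 CPM in control, 0, 0.114 and 0.127 CPM in hypoplastic and 0.145, 0.0717 and 0.103 CPM in treated libraries. The control libraries lay above all others, with an estimate of -1.46 on the log2 scale (SE 0.743, edgeR adjusted p 0.452) in hypoplastic and -1.01 (SE 0.658, edgeR adjusted p 0.998) in treated against control lungs. Sfrp4 was at most 0.735 CPM in any library, and its groups overlapped.

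**Figure D2:**
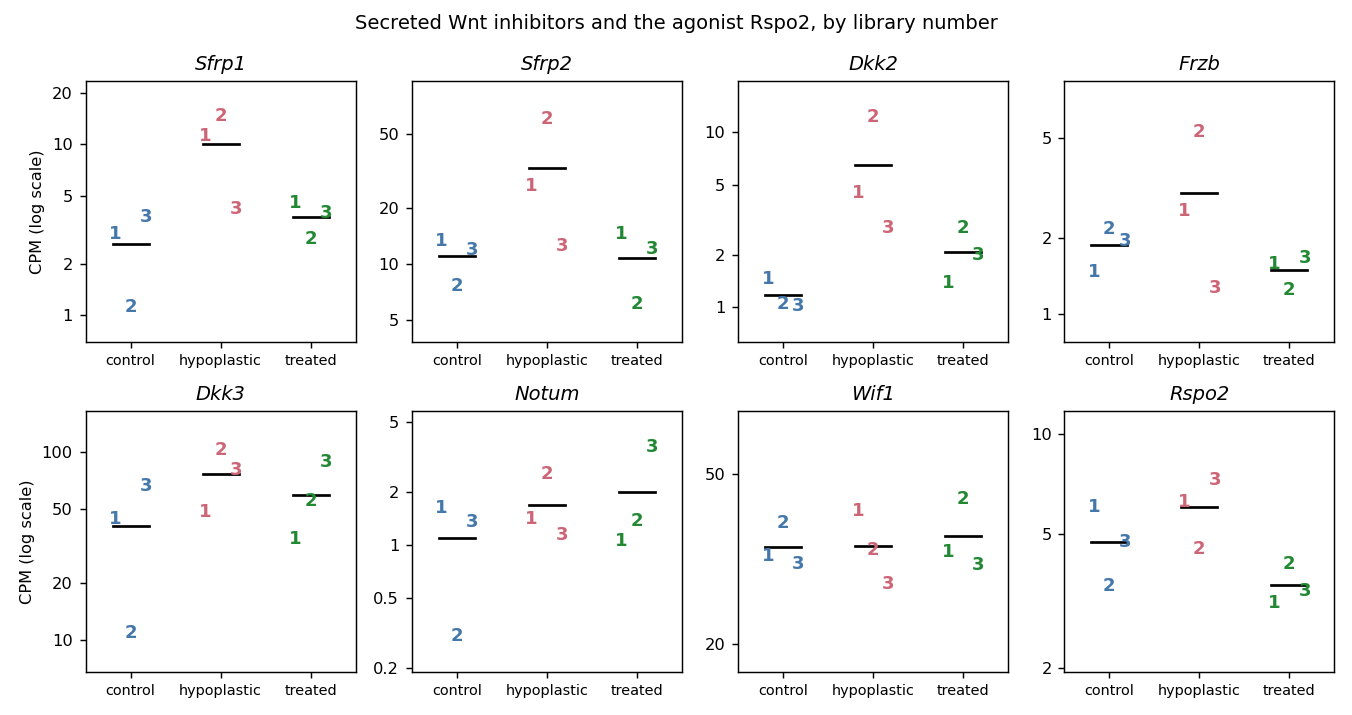
CPM on a log scale (vertical axis) of 7 secreted inhibitor genes and Rspo2 in the 3 groups, with each library shown by its number and the group mean as a line. Hypoplastic libraries 1 and 2 are above every control and treated library for Sfrp1, Sfrp2, Dkk2 and Frzb, and hypoplastic library 3 is close to the other groups.

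Hypoplastic libraries 1 and 2, the ones high in these 4 inhibitors, also stood out in marker genes of other cell types. The 5 heart muscle markers summed to 130 and 66.0 CPM in them and to 2.91 CPM in hypoplastic library 3. Their sums were 2.48 to 9.54 CPM in control and 2.32 to 5.33 CPM in treated libraries. All 5 had a higher mean in hypoplastic than in control lungs, though that of Nppa came from hypoplastic library 2 alone. Nppa was at 4.56 CPM there and at 0 in hypoplastic libraries 1 and 3, below all control libraries. The 4 basal airway markers summed to 101 and 20.2 CPM in hypoplastic libraries 1 and 2, and to 4.81 CPM in library 3. Their sums were 7.50 to 10.6 CPM in control and 6.06 to 12.9 CPM in treated libraries. All 4 were highest in hypoplastic library 1, but in library 2 Krt15 made up 18.0 CPM of the sum. Krt14 was at 0.931 CPM there, above all control libraries. Krt5, at 0.196 CPM there, was below control libraries 1 and 2, and Tp63, at 1.08 CPM, was within the control range. In hypoplastic library 2 the 6 fibroblast markers summed to 9639 CPM, against 2743 and 2876 CPM in libraries 1 and 3, 1212 to 3511 CPM in control and 1891 to 2880 CPM in treated libraries. Col1a1 and Col1a2 made up 5816 and 3230 CPM of that sum. Of the 6 genes, 4 were highest in that library, and Tcf21 and Tbx4, at 21.8 and 91.3 CPM there, were not. The 2 mesothelial markers in the table summed to 77.8 CPM in that library and to 12.8 to 31.4 CPM in the other 8, and the 4 cartilage markers in the table to 984 CPM in hypoplastic library 1 and 122 to 522 CPM elsewhere. The 4 macrophage markers summed to 130 CPM in hypoplastic library 2, where each was highest, and to 17.6 to 105 CPM elsewhere, although Marco was at 0.0163 CPM there and at 0 in the other 8. The 5 smooth muscle markers summed to 810 CPM in hypoplastic library 1, where 4 were highest, and to 179 to 689 CPM elsewhere. No gene of the heart muscle, basal airway, mesothelial, cartilage, macrophage or smooth muscle list had a higher mean in treated than in hypoplastic lungs. The 5 neutrophil markers summed to 50.3 to 83.8 CPM in hypoplastic, 5.89 to 11.4 CPM in control and 16.9 to 74.5 CPM in treated libraries, so that the hypoplastic sums were above all control sums and overlapped the treated ones. Among them Ngp, at 2.01 CPM in hypoplastic library 2, was below control libraries 1 and 2. No marker in the table of these 8 lists was at 0 in all libraries. Marker genes were named here after their values were seen. The part of these cells in the inhibitor values was not tested.

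With hypoplastic library 3 alone in its group, a setting chosen after the values were seen, the log2 fold change in hypoplastic against control lungs was 0.67 for Sfrp1, 0.18 for Sfrp2 and 1.26 for Dkk2, with edgeR adjusted p of 0.924 to 0.981. In treated against hypoplastic lungs it was then -0.16 for Sfrp1, -0.19 for Sfrp2, -0.45 for Dkk2 and 0.23 for Frzb, each with an edgeR adjusted p of 1. The estimates given were thus smaller in size than with all libraries, and Dkk2 alone among these genes was under the unadjusted threshold, with an edgeR p of 0.0196 against control lungs. Frzb, at 1.27 CPM in hypoplastic library 3, was below each control library. This fit assumes that the lone library varies like the other groups.

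**Figure D3:**
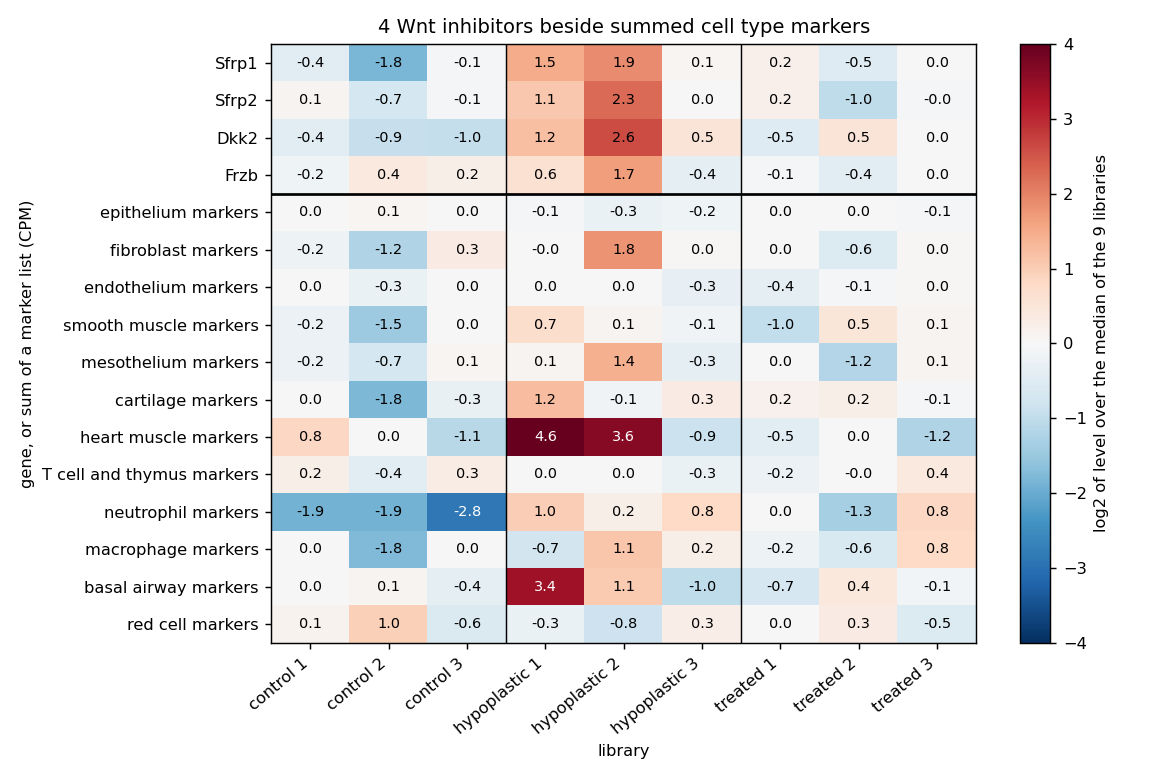
Log2 of the level over the median of the 9 libraries (colour and printed value) for 4 inhibitor genes (top rows, CPM) and the summed CPM of 12 marker lists (lower rows) in each library (columns), with colour held at its darkest beyond the ends of the scale. Sfrp1, Sfrp2, Dkk2 and Frzb are highest in hypoplastic libraries 1 and 2, as are the heart muscle and basal airway sums.

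The destruction complex and beta-catenin showed little difference between groups. Ctnnb1 was at 551, 519 and 525 CPM in control, 513, 491 and 553 CPM in hypoplastic and 527, 524 and 515 CPM in treated libraries, so that the groups overlapped within a narrow range. Its log2 fold changes were -0.03, 0.01 and -0.03, each with an SE of 0.0934. Axin1 and Apc, scaffolds of the complex, had group means of 49.6 to 55.4 and 64.5 to 76.0 CPM. The treated libraries lay above all hypoplastic libraries for Axin1 and above all control libraries for Apc, with log2 fold changes of 0.16 (SE 0.112, edgeR adjusted p 0.937) and 0.24 (SE 0.134, edgeR adjusted p 0.998).

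Axin2, the feedback target that limits beta-catenin, was at 28.5, 19.9 and 36.4 CPM in control, 22.2, 38.0 and 31.1 CPM in hypoplastic and 30.4, 25.2 and 44.2 CPM in treated libraries, and all groups overlapped. Its log2 fold changes were 0.11, 0.13 and 0.23 with an SE of 0.28 or slightly less, so that a difference of this size could not be told from the spread between libraries. Nkd1, a feedback inhibitor that binds Dishevelled, was at 53.2, 50.2 and 63.1 CPM in control, 52.8, 56.8 and 52.3 CPM in hypoplastic and 65.6, 65.8 and 77.1 CPM in treated libraries. Each treated library was above all 6 others, while the control and hypoplastic libraries overlapped. Its log2 fold change was 0.36 (SE 0.115, edgeR adjusted p 0.859) in treated against hypoplastic lungs and 0.32 (SE 0.115, edgeR adjusted p 0.998) in treated against control lungs.

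Tcf7l1, a factor that mostly represses targets where beta-catenin is absent, was also highest in treated lungs. It was at 57.0, 49.9 and 54.3 CPM in control, 53.7, 55.9 and 52.5 CPM in hypoplastic and 66.6, 65.1 and 62.3 CPM in treated libraries, so each treated library was above all 6 others. The log2 fold change was 0.26 (SE 0.0896, edgeR adjusted p 0.869) in treated against hypoplastic and 0.27 (SE 0.0896, edgeR adjusted p 0.998) in treated against control lungs. Leaving out 1 library gave 0.24 to 0.29 and 0.22 to 0.33 in these comparisons, and 0.29 to 0.41 and 0.24 to 0.43 for Nkd1. In treated against control lungs the unadjusted edgeR p was 0.0142 for Tcf7l1 and 0.0192 for Nkd1, and with both libraries that stood apart left out it was 0.0579 and 0.0740. For Tcf7l1 in treated against hypoplastic lungs it was 0.0168, and 0.0552 without hypoplastic library 3 and 0.0532 without treated library 1. For Nkd1 in treated against control lungs it was 0.0547 without control library 1, 0.0654 without control library 2 and 0.0772 without treated library 3.

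Tcf7l2, the factor that mediates much of beta-catenin's action, was at 60.5, 62.9 and 61.9 CPM in control, 66.3, 74.5 and 72.9 CPM in hypoplastic and 58.5, 68.2 and 71.8 CPM in treated libraries. The hypoplastic libraries lay above all control libraries with an estimate of 0.21 on the log2 scale (SE 0.102, edgeR adjusted p 0.438). Lef1, both a mediator and a target, was at 9.13, 5.35 and 6.62 CPM in control, 7.09, 8.88 and 8.83 CPM in hypoplastic and 7.77, 9.15 and 11.0 CPM in treated libraries, with overlap throughout. Lef1 is also expressed in developing T cells, whose 5 markers summed to 2.94 to 5.17 CPM in the 9 libraries, with Cd3d, Cd3e and Cd3g at 0.12 CPM or less in each.

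**Figure D4:**
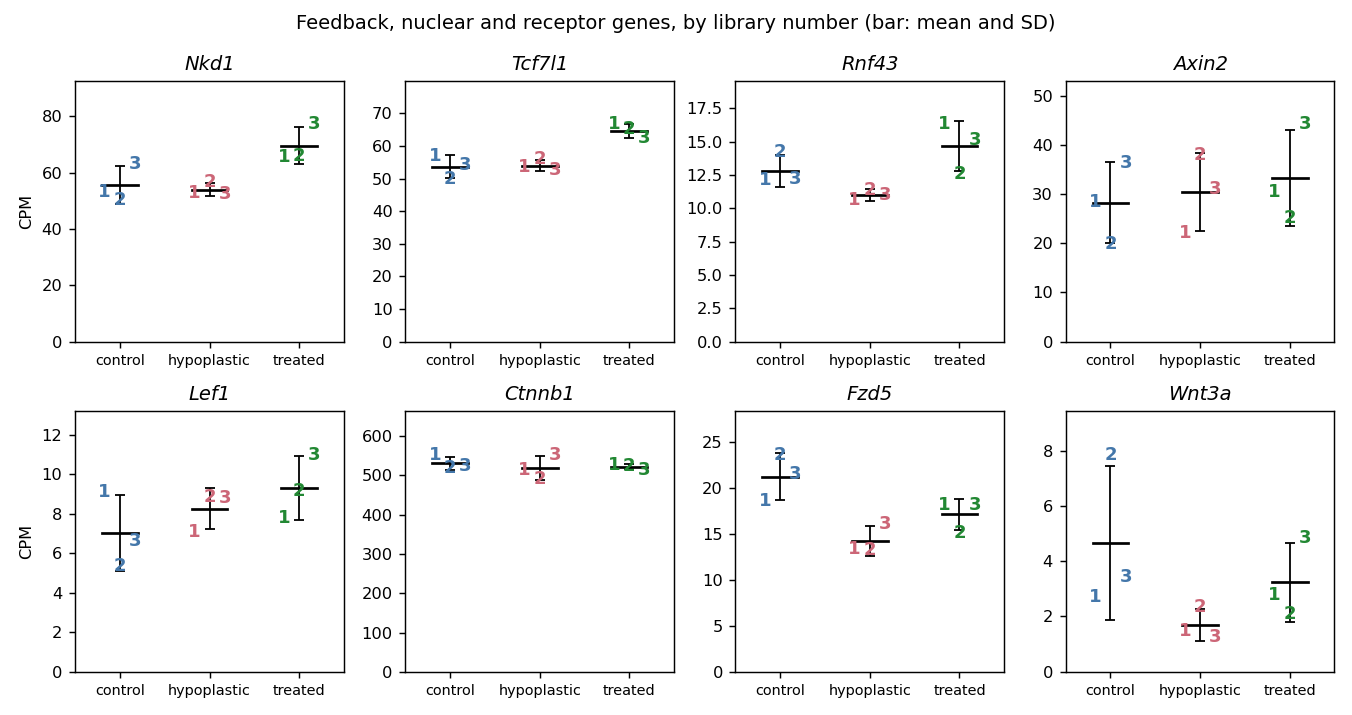
CPM (vertical axis, from 0) of 8 Wnt pathway genes in the 3 groups, with each library shown by its number and the group mean with its SD as bars. For Nkd1 and Tcf7l1 the treated libraries, at 65.6 to 77.1 and 62.3 to 66.6 CPM, are above all other libraries, while Axin2, Lef1 and Ctnnb1 overlap and Fzd5 is highest in control lungs.

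A further 80 genes of the pathway were listed, of which 72 were in the table and 53 had a mean of at least 1 CPM and were tested. edgeR called 0 of the 53 at an adjusted p under 0.05 in each comparison. Below the unadjusted threshold there were 1 higher and 2 lower in hypoplastic against control, 2 higher and 0 lower in treated against hypoplastic and 1 higher and 0 lower in treated against control lungs, or 5.66%, 3.77% and 1.89%, against 12.4%, 5.56% and 4.17% of all genes. Their median log2 fold changes were 0.01, 0.08 and 0.07. These genes were named because there were so few, after their values were seen.

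Wnt7a, a ligand, was at 10.9, 24.6 and 14.6 CPM in control, 6.98, 10.1 and 9.68 CPM in hypoplastic and 16.5, 11.4 and 14.6 CPM in treated libraries. The hypoplastic libraries lay below all others, as they did for Rnf43. Its log2 fold change was -0.90 (SE 0.291, edgeR adjusted p 0.325) in hypoplastic against control and 0.67 (SE 0.290, edgeR adjusted p 0.895) in treated against hypoplastic lungs. Sp5, a direct target of beta-catenin signalling, was at 5.41, 3.37 and 3.49 CPM in control, 3.51, 3.64 and 3.26 CPM in hypoplastic and 6.44, 5.14 and 4.96 CPM in treated libraries, with an estimate of 0.67 on the log2 scale (SE 0.221, edgeR adjusted p 0.859) in treated against hypoplastic lungs. The treated libraries were above all hypoplastic libraries, and control library 1 lay among them. The corepressor gene Tle2 was at 19.8, 27.7 and 23.1 CPM in control, 20.3, 14.6 and 15.9 CPM in hypoplastic and 20.7, 22.6 and 17.3 CPM in treated libraries, which overlapped, with an estimate of -0.48 (SE 0.177, edgeR adjusted p 0.359) in hypoplastic against control lungs. The transcription factor gene Jun was at 293, 300 and 324 CPM in control, 344, 420 and 453 CPM in hypoplastic and 301, 401 and 334 CPM in treated libraries. All hypoplastic libraries were above all control libraries, with an estimate of 0.41 (SE 0.139, edgeR adjusted p 0.333). Pygo1, a cofactor of beta-catenin, was at 2.54, 2.62 and 3.89 CPM in control, 4.30, 3.87 and 3.62 CPM in hypoplastic and 4.07, 4.13 and 4.92 CPM in treated libraries. All treated libraries were above all control libraries, with an estimate of 0.53 (SE 0.211, edgeR adjusted p 0.998).

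By group of the further list, the 18 cytoplasmic genes (Dishevelled, Gsk3, casein kinase and others) had log2 fold changes of -0.30 to 0.41 in hypoplastic against control lungs and none at an unadjusted p under 0.05 in any comparison. The 10 planar polarity genes lay between -0.24 and 0.28 in that comparison, also with none. Of the 9 target genes, 1 (Jun) was under that threshold in hypoplastic against control and 1 (Sp5) in treated against hypoplastic lungs. The targets Ccnd1, Myc and Cd44 were not among them.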

How the data were processed

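Total RNA of 9 fetal lungs was sequenced after removal of ribosomal RNA, per the labels' protocols. The authors deposited 1 table of estimated counts per gene without scaling between libraries; genome build rn7 and DESeq2 are named in the submitters' processing notes with no role. Not given in the sources used here: aligner, counting program, annotation and strand setting. Values of overlapping or near-identical genes are therefore uncertain. Of the nonzero values 19.5% were whole (no tolerance), and values were rounded before testing, although the design had assumed whole counts. Symbols came from a RefSeq table of GRCr8, used for names (99.1% of IDs matched).

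Comparisons used the quasi-likelihood test of edgeR 4.0.16 in R 4.3.3 (glmQLFTest after glmQLFit, legacy=FALSE) with TMM factors, after filterByExpr by group (12966 genes kept), all 9 libraries in 1 fit with a term per group and 6 residual degrees of freedom. The Benjamini-Hochberg adjustment ran over all genes tested, and SE is the absolute change over the square root of F, which is approximate. The alternatives used RLE factors, other filters, DESeq2 1.42.0, limma 3.58.1 (voom), only the 6 libraries compared, a replicate block, a sex term, removal of ribosomal and 7SL rows, and omission of libraries. The scripts were tested on simulated counts. Values by library are given for genes of the set with at least 1 CPM at an unadjusted p under 0.05 in a comparison and for a list of feedback genes, ligands and receptors. Most others are given by group mean or range. The genes, lists and tests were chosen with earlier results of these data known. No label ties lungs of different groups by number: deviations of same-numbered libraries correlated at -0.282 to 0.227.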

Additional observations from a re-analysis of the deposited data

How the results depend on the processing

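No Wnt gene passed an adjusted p of 0.05 under any alternative by edgeR or limma voom, and DESeq2 called 3 in hypoplastic against control lungs (Dkk2, Sfrp1 and Fzd5) and 0 in the other comparisons; the cause was not tested. The replicate block gave 5, 7 and 2 genes at an unadjusted p under 0.05 in the 3 comparisons, against 5, 8 and 2 without it (10.2%, 4.49% and 3.72% of all genes under the block), and changed no adjusted call. At the stricter unadjusted p of 0.01 the counts were 3, 1 and 0 (2.98%, 1.13% and 0.710% of all genes). With hypoplastic library 3 alone in its group, an alternative chosen after the data were seen, the counts at an unadjusted p under 0.05 were 2 in hypoplastic against control and 1 in treated against hypoplastic lungs (4.86% and 2.85% of all genes), and the log2 change of Frzb in the latter reversed to 0.234, where 1 library in place of 3 was compared. Leaving out 1 library gave 4 to 6, 5 to 9 and 1 to 3 genes under 0.05, where 6.49% to 12.9%, 2.85% to 7.39% and 2.91% to 4.85% of all genes were. It moved the median log2 change of the 41 genes from 0.0151 to 0.102 in hypoplastic against control, from -0.125 to 0.0612 in treated against hypoplastic and from -0.0242 to 0.203 in treated against control lungs. Without control library 2 and hypoplastic library 2, the counts were 5 (2 higher and 3 lower), 10 (6 and 4) and 2, both lower (5.58%, 6.85% and 3.43% of all genes). The sex term, from Xist and Y-linked genes, gave 5, 7 and 2 (8.13%, 4.53% and 2.84% of all genes). Of the 15 single-gene estimates at an unadjusted p under 0.05, none but that of Frzb reversed under any alternative. Estimates outside those 15 changed sign with 1 library left out in up to 11 of the 41 genes. The largest of these was 0.522 in size (Wnt3a, treated against control lungs, without control library 2). Without control library 2 and hypoplastic library 2, 16 of the 41 changed sign in hypoplastic against control lungs, the largest being 0.600 in size (Notum). The median log2 change of the 41 genes was then -0.0112, against 0.0628 with all libraries. The 5 genes below 1 CPM rest on the fewest counts.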
